A study of Mus musculus with 24 samples.

Results

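The cytosolic ribosomal proteins are the protein parts of the ribosome that works in the cytosol, as opposed to the mitochondrial ribosome. Their rows were taken by gene symbol (Rpl or Rps followed by a number, with an optional a, x, y or l at the end, plus Rplp0, Rplp1, Rplp2 and Rpsa), which gave 82 of the 24421 rows of the count table, 32 for the small and 50 for the large subunit. Rows of S6 kinases and rows marked as pseudogenes were left out. The rule itself uses no measured value, although it was set with earlier results of these data known. Of the 82 rows, 79 passed the filter on low counts and were tested. The rows that did not pass were Rpl10l, Rpl26 and Rpl39l. The symbol rule misses a few ribosomal proteins whose symbols are built differently, such as Rps3a1 and Fau, which are given separately.

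The libraries came from male C57BL/6 mice, 4 young animals of 12 weeks and 4 aged animals of 107 weeks, for which no treatment and no genetic change is named. Bone marrow was enriched for cells with CD117 (Kit) on their surface, and cells without lineage markers but with Sca1 and Kit were sorted into long-term stem cells (LT-HSC, CD150+CD48-), short-term stem cells (ST-HSC, CD150-CD48-) and multipotent progenitors (MPP, CD150-CD48+). Each age and population has 4 bulk RNA-seq libraries, so there are 6 groups and 24 libraries. No label ties a library to a mouse, so the p-values measure the spread between these libraries. In bulk samples, fewer cells of a type and less RNA per cell cannot be told apart.

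A ribosome holds a single copy of nearly every ribosomal protein, and the stalk proteins Rplp1 and Rplp2 are the known exception. Small-subunit proteins surround the decoding centre and the path of the mRNA, while large-subunit proteins surround the peptidyl transferase centre, the exit tunnel and the stalk that recruits elongation factors. In mammals most of these mRNAs begin with a cytosine followed by a run of pyrimidines, the 5′ terminal oligopyrimidine (TOP) tract, through which mTOR and Larp1 set their translation. Blood formation is sensitive to their dose: loss of a single copy of several of these genes causes Diamond-Blackfan anemia, and protein synthesis is known to be low in hematopoietic stem cells compared with progenitors.

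Some of the annotated start sites of these genes show this tract. Of the 82 members, 61 had an entry in the RefSeq table of start sites (GRCm38.p6), with 73 start sites in all. A C at the start base followed by 4 pyrimidines (C or T) stood at 13 of the 73 (17.8%), against 2.51% of 32851 start sites of all genes. Within 10 bases on either side, the same pattern began at 54.8% of the members' start sites and 30.7% of all. The following windows run from 15 bases before to 15 bases from the annotated start, 5′ to 3′ on the gene's strand, with the pyrimidine run that holds the pattern in capitals. Rpl35, Rps6, Rplp2 and Rps18 are shown because the pattern begins at the start base itself. Rpl12 and Rps24 lead comparisons, and the pattern begins near but not at the start (the Rps24 run covers the start base, a T). Another annotated start of Rps24, with its window at chr14:24490738-24490767, has no such pattern within 10 bases. Rps25 and Rpl4 lead comparisons, and the pattern begins nowhere within 10 bases of their start (the Rpl4 window opens with pyrimidines farther upstream).
Rpl35, chr2:39005117-39005146, minus strand: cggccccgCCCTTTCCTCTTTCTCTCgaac
Rps6, chr4:86857353-86857382, minus strand: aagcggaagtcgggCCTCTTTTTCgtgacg
Rplp2, chr7:141447636-141447665, plus strand: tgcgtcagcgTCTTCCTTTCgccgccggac
Rps18, chr17:33955651-33955680, minus strand: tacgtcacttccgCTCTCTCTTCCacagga
Rpl12, chr2:32961697-32961726, plus strand: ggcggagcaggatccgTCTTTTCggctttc
Rps24, chr14:24490663-24490692, plus strand: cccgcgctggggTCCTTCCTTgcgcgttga
Rps25, chr9:44407699-44407728, plus strand: tttttccgacatcttagcgaggctgctgtg
Rpl4, chr9:64173372-64173401, plus strand: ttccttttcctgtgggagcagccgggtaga
In the 250 bases before the start, searched on both strands, the ETS core CCGGAAG was found at 26.0% of the members' start sites and 6.91% of all, and the Sp1 box GGGCGG at 47.9% and 32.7%. The E-box CACGTG, the kind of site that Myc binds, was at 9.59% and 6.02%, and the YY1 core AAGATGGC at 4.11% and 1.56%. TATAAA in the 50 bases before the start, on the gene's strand, was at none of the 73 members' start sites and at 2.63% of all. These are matches of letters and say nothing of binding.

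Library totals ran from about 7307150 to about 12946600 counts. The 9 LT-HSC marker genes summed to 0.341 to 0.451% of the counts in the LT-HSC libraries, 0.214 to 0.287% in the ST-HSC libraries and 0.0585 to 0.146% in the MPP libraries, and the 6 MPP markers ran the other way, from 0.0167 to 0.0471% in LT-HSC to 0.263 to 0.327% in MPP. Markers of other cells moved with the groups: the B and plasma cell markers (10 of 12 listed genes in the table, all 10 with counts in both MPP groups) summed to 0.198 to 0.905% in aged MPP and 0.0128 to 0.0434% in young MPP, while Ms4a1 and Pax5 had no count in any LT-HSC or ST-HSC library. Granulocyte markers (12 of 12 with counts in both MPP groups) summed to 0.151 to 0.540% in aged MPP and 0.0760 to 0.325% in young MPP. Young LT-HSC library 1 held 0.0972% of them, against 0.00290 to 0.00431% in the other young LT-HSC libraries, and aged ST-HSC libraries 1 to 3 held 0.246 to 0.309%, against 0.0171% in library 4. Counts of members called are also given without 3 libraries together (library 1 of young LT-HSC, libraries 2 and 3 of aged ST-HSC), a choice made after marker levels were seen. That set follows no rule on the granulocyte markers, since it keeps aged ST-HSC library 1, which held the most of them in its group (0.309%). Counts are given as well without each library alone where this moves the count. The row Rn45s, the precursor of ribosomal RNA, took 5.64 to 10.9% of the counts.

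Together the 82 rows made up the largest share of counts in aged MPP, 2.76 ± 0.202% (SD, n = 4 libraries here and below), against 2.30 ± 0.177% in young MPP. The share was 2.30 ± 0.219% for aged and 2.08 ± 0.111% for young ST-HSC. In LT-HSC it was 2.31 ± 0.168% for the aged and 2.32 ± 0.262% for the young libraries. The aged MPP libraries held 2.74, 2.77, 2.52 and 3.02%, all above the young MPP libraries at 2.40, 2.05, 2.32 and 2.45%. The aged LT-HSC libraries lay within the range of the young ones, and in ST-HSC the aged libraries (2.51, 2.40, 2.00 and 2.30%) overlapped the young (2.20, 2.02, 2.15 and 1.97%) through aged library 3. Split by subunit, small-subunit rows took 0.994 ± 0.0756% in young and 1.21 ± 0.0907% in aged MPP, and large-subunit rows 1.31 ± 0.102% and 1.55 ± 0.113%. These shares are a description and carry no test. Levels of single genes are given in CPM, which are counts divided by the library total after its TMM correction, or in log2 CPM.

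**Figure D1:**
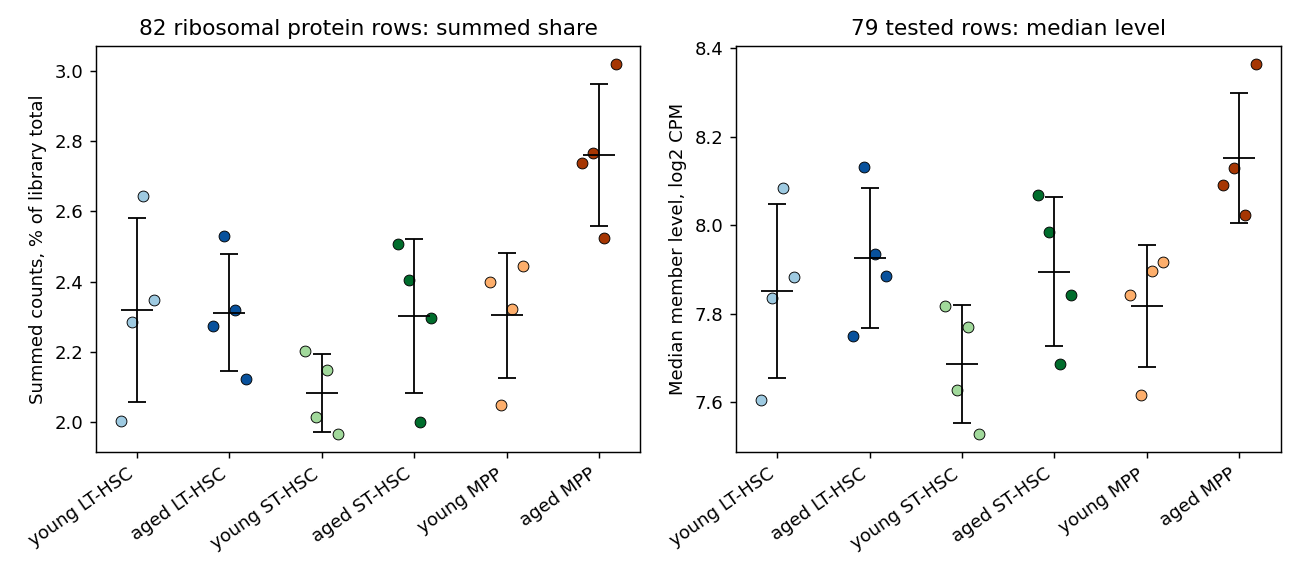
Summed share of counts of the 82 ribosomal protein rows (left, % of library total) and the median level of the 79 tested rows (right, log2 CPM) in each of the 24 libraries, with mean and SD of the 4 libraries of a group. The 4 aged MPP libraries lie at 2.52% and above, over every young MPP library.

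By group means, aged MPP was the highest of the 6 groups for 71 of the 79 tested members (89.9%), while it was the highest for 24.1% of all 14205 tested genes. Young ST-HSC was the lowest group for 54 members (68.4%), against 8.69% of all genes. For most members the aged MPP level thus stood at one end and the young ST-HSC level at the other, with the other 4 groups between. For Rps25 the means ran from 463 CPM in young ST-HSC through 498 in young LT-HSC, 511 in aged LT-HSC, 534 in young MPP and 594 in aged ST-HSC to 766 in aged MPP, and of these neighbours only aged ST-HSC and aged MPP had libraries that did not overlap.

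The first comparison asks how the members changed with age in each population. In MPP, 12 of 79 members were higher in aged mice and none was lower, by edgeR's quasi-likelihood test at a Benjamini-Hochberg adjusted p under 0.05 over all 14205 genes. Over all genes, 5.53% were called higher and 4.27% lower. The median change of the 79 members was a log2 of 0.34, with 76 positive and 3 negative, and the median over all genes was -0.00. For 32 members every aged MPP library lay above every young MPP library, a pattern seen in 8.83% of all genes. The called members were split evenly, 6 of 32 small-subunit and 6 of 47 large-subunit rows, and the medians were 0.34 and 0.33.

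Among small-subunit proteins, Rps25, which is needed for initiation at certain internal ribosome entry sites, led the change in MPP (chr9:44407139-44410427 on mm10). Its level was 558, 470, 554 and 553 CPM in the young MPP libraries and 774, 752, 662 and 877 CPM in the aged. The groups did not overlap, with young library 2 lowest and aged library 4 highest. The log2 change was 0.52 (SE 0.0994, adjusted p = 0.00102), a fold of 1.44. Rps24, a Diamond-Blackfan anemia gene whose protein is needed to process the small-subunit rRNA precursor (chr14:24487125-24496959), stood at 295, 272, 282 and 292 CPM in young MPP and 350, 389, 385 and 396 CPM in aged MPP. The ages were again separate, and the log2 change was 0.41 (SE 0.0902, adjusted p = 0.00365). Rps12, which lies in the beak of the small subunit, rose from 763 ± 81.9 to 968 ± 55.4 CPM (log2 0.34, adjusted p = 0.0111), and Rps3, at the mRNA entry channel, from 664 ± 26.6 to 798 ± 37.4 CPM (log2 0.26, adjusted p = 0.0113). Rps13 (log2 0.40, adjusted p = 0.0227) and Rps28 (0.48, 0.0295) also rose.

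Among large-subunit proteins, Rpl10, which joins the subunit late and reaches toward the peptidyl transferase centre (chrX:74270812-74273135), stood at 441, 377, 412 and 438 CPM in young MPP and 620, 569, 491 and 598 CPM in aged MPP. All aged libraries were above all young ones, and the log2 change was 0.45 (SE 0.102, adjusted p = 0.00469). Rpl19, which takes part in a bridge between the subunits, was at 194, 167, 204 and 211 CPM in young and 243, 251, 235 and 263 CPM in aged MPP (log2 0.35, SE 0.0897, adjusted p = 0.0108). Rpl9, Rpl12 and the stalk base protein Rplp0 rose by log2 changes between 0.27 and 0.37. Of the stalk proteins, only Rplp0 passed in MPP (0.36, adjusted p = 0.0253), and Rplp1 and Rplp2 had values of 0.22 and 0.34 with adjusted p of 0.450 and 0.508. The calls of Rpl19 and Rps12 did not hold without young MPP library 2 (adjusted p = 0.0601 and 0.0613), which had the lowest member share of its group, and 5 members were called without that library. Without the 3 libraries named above, which are of other populations but share the fit, 21 were called.

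Several marker lists moved with this result. Among them are the B and plasma cell markers given above: aged MPP library 4 had the highest summed level of them, 0.905%, and also the highest member share, 3.02%. LT-HSC markers summed to 0.110 to 0.146% in young and 0.0585 to 0.0724% in aged MPP, without overlap. Megakaryocyte and platelet markers summed to 0.00674 to 0.00833% in young and 0.00959 to 0.0129% in aged MPP, without overlap. T and NK cell markers (10 of 11 listed genes in the table) summed to 0.0135 to 0.0186% and 0.0201 to 0.0392%, also without overlap, while Cd3e had no count in any of the 6 groups. The part of these markers in the result was not tested. Without library 4 of aged MPP 8 members were called higher. The Rn45s share of counts was 8.74 ± 1.38% in young and 9.19 ± 0.813% in aged MPP.

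**Figure D2:**
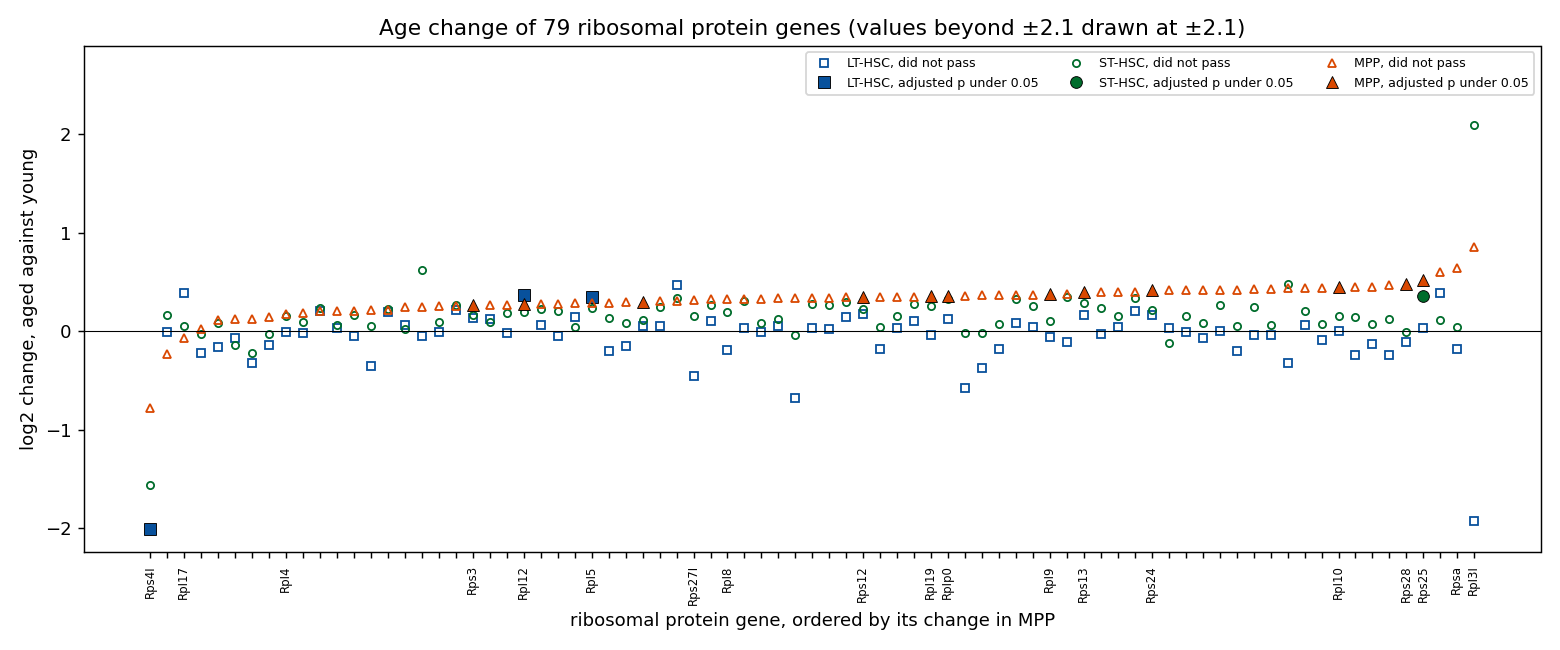
Age change (log2, aged against young) of the 79 tested ribosomal protein genes in LT-HSC, ST-HSC and MPP, ordered by the change in MPP, with some genes described in the text labelled and filled symbols where the adjusted p was under 0.05. The MPP triangles lie above 0 for 76 genes, and the filled symbols are 12 in MPP, 1 in ST-HSC and 3 in LT-HSC.

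In ST-HSC, Rps25 alone was called, as higher, and no member was lower, where 3.58% of all genes were higher and 2.21% lower. Its level was 501, 450, 477 and 425 CPM in young and 644, 611, 527 and 593 CPM in aged ST-HSC. The groups did not overlap, and the log2 change was 0.36 (SE 0.0994, adjusted p = 0.0308), and the call was lost without aged library 1 or 2 or young library 2, 3 or 4, with an adjusted p of up to 0.0968. The median change of the 79 members was 0.16, with 69 positive and 10 negative, against a median of 0.01 over all genes. For 6 members all aged libraries were above all young ones (5.94% of all genes). The count of called members was 0 when any one of aged library 1 and young libraries 2, 3 and 4 was left out, 3 without aged library 3, and 3 without the 3 libraries together. Granulocyte markers summed to 0.00874 to 0.0383% in young ST-HSC, under the first 3 aged libraries. All 4 aged ST-HSC libraries were above all young ones in monocyte and macrophage markers (0.0404 to 0.0856% against 0.0206 to 0.0316%) and in T and NK cell markers (0.0152 to 0.0229% against 0.00611 to 0.00803%). The same held for MPP markers (0.181 to 0.197% against 0.144 to 0.172%) and for megakaryocyte and platelet markers (0.0143 to 0.0174% against 0.00898 to 0.0107%). Of the 10 T and NK cell genes in the table, 5 had counts in young and 6 in aged ST-HSC. The part of these markers in the result was not tested.

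In LT-HSC, 2 members were higher and 1 was lower, where 9.98% of all genes were higher and 8.87% lower. The shares of members were 2.53% and 1.27%. Their median was -0.01, with 36 positive and 43 negative. Rpl12, at the base of the stalk where elongation factors bind (chr2:32961559-32965345), was at 488, 533, 591 and 519 CPM in young and 714, 764, 667 and 611 CPM in aged LT-HSC. The ages did not overlap, and the log2 change was 0.37 (SE 0.0735, adjusted p = 0.000662), a call kept in each of the 18 alternatives run. Rpl12 was the only member whose aged LT-HSC libraries were all above the young ones (12.5% of all genes). In ST-HSC its aged libraries (603, 610, 543 and 592 CPM) were also all above the young (536, 521, 502 and 490 CPM), without passing the test (log2 0.20, adjusted p = 0.118), and in MPP Rpl12 rose from 620 ± 33.6 to 749 ± 48.0 CPM (log2 0.27, adjusted p = 0.016).

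Rpl5, which with Rpl11 and the 5S rRNA binds Mdm2 when ribosome assembly fails (chr5:107900502-107909005), was at 198, 180, 188 and 170 CPM in young and 197, 231, 272 and 238 CPM in aged LT-HSC. Aged library 1 lay within the young range, and the log2 change was 0.35 (SE 0.107, adjusted p = 0.0209). The call did not hold without aged library 3 or 4 or young library 2 or 4, or when libraries were scaled by their totals, with an adjusted p of up to 0.118. Rps4l, a low row related to Rps4x, was at 3.20, 2.68, 3.65 and 3.35 CPM in young LT-HSC and 0, 0.305, 2.30 and 0.610 CPM in aged. The aged libraries held 26 counts together and the young 127, and the log2 change was -2.01 (SE 0.679, adjusted p = 0.0377). It was lost in 8 of 18 alternatives, among them 7 of the 8 with a library left out. In ST-HSC all aged libraries of Rps4l were also under the young (32 and 92 counts, adjusted p = 0.186).

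With any one of aged LT-HSC library 4 and young LT-HSC libraries 2 and 4 left out, 1 member was called in LT-HSC in place of 3, and without the 3 libraries 5 were called. The stalk proteins Rplp1 and Rplp2 were lower in aged LT-HSC as values, by log2 changes of -0.35 and -0.68, and did not pass (adjusted p = 0.138 and 0.101). Rn45s took 9.01 ± 1.82% of the counts in young and 6.46 ± 0.602% in aged LT-HSC. Megakaryocyte and platelet markers (6 of 6 with counts) summed to 0.0428 to 0.0708% in young and 0.138 to 0.153% in aged LT-HSC, and T and NK cell markers to 0.00264 to 0.00411% and 0.00724 to 0.0121%, neither overlapping. LT-HSC markers were also higher without overlap, at 0.341 to 0.409% in young and 0.425 to 0.451% in aged LT-HSC. Of the 10 T and NK cell genes in the table, 5 had counts in young and 4 in aged LT-HSC. Cd8a had counts in young LT-HSC and none in aged. Lower without overlap in aged LT-HSC were MPP markers (0.0167 to 0.0386% against 0.0405 to 0.0471%) and monocyte and macrophage markers (0.0252 to 0.0292% against 0.0305 to 0.0349%). The part of these marker lists in the result was not tested.

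**Figure D3:**
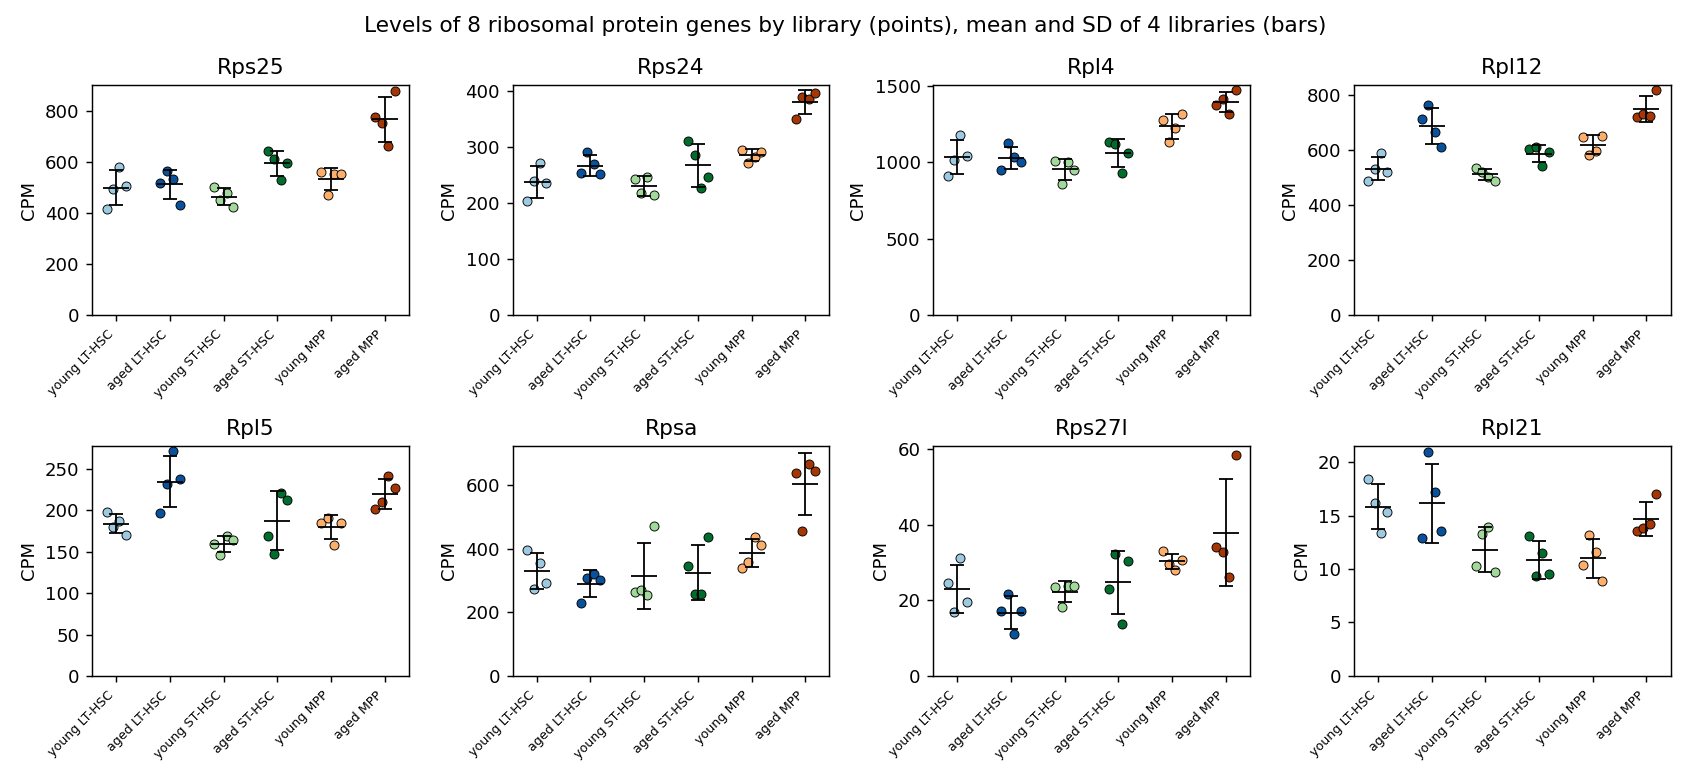
Levels in CPM of 8 ribosomal protein genes in each library (points) with mean and SD of the 4 libraries of a group (bars). Rps25, Rps24, Rpl4 and Rpsa are highest in aged MPP, while Rpl12 and Rpl5 are also high in aged LT-HSC (689 and 235 CPM).

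The age changes were then compared between populations, as the difference of the changes in the same model. The change in LT-HSC was smaller than that in MPP for 5 members, and larger for none (4.89% and 5.05% of all genes). These were Rps25 (difference -0.48, SE 0.140, adjusted p = 0.0274), Rpl8 (-0.52, 0.167, 0.0458), Rpl19 (-0.40, 0.127, 0.0462), Rpl10 (-0.44, 0.144, 0.0476) and Rpl9 (-0.43, 0.141, 0.0496), where the values in parentheses are the log2 difference, its SE and the adjusted p. Rpl8, which lies close to the peptidyl transferase centre, was at 271, 325, 387 and 346 CPM in young and 278, 327, 282 and 274 CPM in aged LT-HSC, and at 364, 272, 361 and 403 CPM in young and 441, 428, 381 and 507 CPM in aged MPP. Its ages overlapped in both populations, and neither age change alone passed. The median difference over the 79 members was -0.32, with 73 negative, against -0.00 over all genes. None of the 5 was called without aged LT-HSC library 4, aged MPP library 4, young MPP library 2 or young LT-HSC library 3, and 11 members were called without young LT-HSC library 1. The count was 1 to 3 without aged LT-HSC library 1 or 3, aged MPP library 1 or 2, young LT-HSC library 2 or 4, or young MPP library 1 or 3, and 14 without the 3 libraries together.

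Between LT-HSC and ST-HSC no member's age change was called different (1.65% of all genes higher and 2.39% lower, edgeR), with 5 at an unadjusted p under 0.05 and a median difference of -0.17. Between ST-HSC and MPP no member was called either (0.183% and 0.282% of all genes), with 1 at an unadjusted p under 0.05 and a median of -0.16. DESeq2 also called 0 in both. Without aged ST-HSC library 3, 1 member differed between LT-HSC and ST-HSC. Over the 74 members of at least 10 CPM, Spearman's rho between the age changes was 0.47 for LT-HSC and ST-HSC, -0.12 for LT-HSC and MPP and 0.20 for ST-HSC and MPP, given as descriptions across genes that share libraries.

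The second kind of comparison asks how the populations of one age differ. These comparisons share libraries with each other and with the age comparisons. Between young LT-HSC and young ST-HSC, 1 member was higher and none lower in LT-HSC (6.79% and 5.74% of all genes): Rpl19 at 182, 196, 226 and 209 CPM against 173, 165, 170 and 150 CPM (log2 0.30, SE 0.0900, adjusted p = 0.0242). The LT-HSC libraries were all above the ST-HSC libraries, and the call was lost without young LT-HSC library 3 or 4 or young ST-HSC library 4. The count was 2 when young LT-HSC library 1 or young ST-HSC library 1 was left out. The median of the members was 0.17, with 74 of 79 positive.

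Young ST-HSC against young MPP gave 9 lower members and none higher, where 10.1% of all genes were lower and 10.5% higher, so the share of members called lower, 11.4%, was close to that of all genes. Rpl4, which lines the exit tunnel (chr9:64173375-64178666), was at 1007, 857, 1004 and 947 CPM in young ST-HSC and 1279, 1130, 1223 and 1316 CPM in young MPP. The groups did not overlap (log2 -0.37, SE 0.0808, adjusted p = 0.00146). Rps12 (-0.36), Rpl12 (-0.28), Rps3 (-0.24), Rpl11 (-0.33) and Rps24 (-0.31) followed with adjusted p from 0.0039 to 0.016, and Rpl31 and Rpl28 passed with 0.0277 and 0.0381. The median over the members was -0.21. With young ST-HSC library 2 left out 4 members were called, without the 3 libraries 16, and in a fit of only these groups 19.

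Young LT-HSC against young MPP gave 1 higher and 4 lower members, where 18.9% of all genes were higher and 18.3% lower, and the median of the members was -0.03. Rpl21 was higher (log2 0.52, adjusted p = 0.029), and Rpl4 (-0.25), Rpl12 (-0.22), Rps24 (-0.26) and Rps12 (-0.23) were lower, with adjusted p from 0.0141 to 0.0413. Rpl21 is a low row, at 18.4, 16.2, 13.3 and 15.4 CPM in young LT-HSC and 10.3, 13.2, 11.6 and 8.92 CPM in young MPP, and 81 pseudogenes share at least a 50-base stretch with its mRNA. None of the 5 calls was made without young LT-HSC library 1, young MPP library 1 or young MPP library 4, and the count was 1 and 3 when the second and the fourth young LT-HSC library were left out.

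In aged mice, many members were lower in each stem cell group than in MPP. Against aged MPP, aged LT-HSC had 43 lower members and 1 higher, where 28.5% of all genes were lower and 28.3% higher. The median of the members was -0.38 and that of all genes 0.02, with 74 of 79 members negative. For 31 members every aged LT-HSC library was under every aged MPP library (25.4% of all genes). The lower members were 17 of 32 small-subunit and 26 of 47 large-subunit rows.

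Rps25 was lower by a log2 of -0.58 (SE 0.0995, adjusted p = 1.61e-05), Rps24 by -0.51 (SE 0.0903, adjusted p = 2.62e-05) and Rpl4 by -0.44 (SE 0.0808, adjusted p = 4.32e-05) in aged LT-HSC. Rpl4 was at 951, 1127, 1034 and 1002 CPM in aged LT-HSC and 1375, 1412, 1319 and 1475 CPM in aged MPP, with no overlap. Rpl8 was lower by -0.60 (SE 0.118, adjusted p = 0.000118). Rpsa, a small-subunit protein also known as the precursor of the laminin receptor (chr9:120127689-120132369), was at 230, 310, 322 and 301 CPM in aged LT-HSC and 640, 457, 667 and 646 CPM in aged MPP. The lowest aged MPP library was above all aged LT-HSC libraries, and the log2 difference was -1.05 (SE 0.204, adjusted p = 0.000182). Rps27l, a paralog of Rps27 that p53 is known to induce, was at 17.2, 21.6, 11.2 and 17.1 CPM in aged LT-HSC and 34.2, 32.7, 26.2 and 58.5 CPM in aged MPP (log2 -1.17, SE 0.249, adjusted p = 0.000288). The groups did not overlap, although the aged MPP libraries spread from 26.2 to 58.5 CPM.

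Among the called members the exception in direction was Rpl17, which lines the exit tunnel. It was higher in aged LT-HSC, at 12.6, 15.5, 14.2 and 11.8 CPM against 11.1, 10.0, 9.08 and 7.75 CPM in aged MPP (log2 0.51, SE 0.190, adjusted p = 0.0233), without overlap. Its mRNA was 21.4% unique in 50-base windows, and the call was lost without aged LT-HSC library 2 or 3 or aged MPP library 3 or 4. The 3 stalk proteins were all lower in aged LT-HSC, Rplp2 by -0.83 (adjusted p = 0.0179), Rplp0 by -0.27 (0.0284) and Rplp1 by -0.39 (0.042). Without aged MPP library 4, which holds the most B and plasma cell marker counts, 27 members were called in this comparison, and with aged LT-HSC library 1 left out, 29.

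Aged ST-HSC against aged MPP gave 33 lower members and none higher, where 14.4% of all genes were lower and 15.5% higher. The median of the members was -0.35, with 78 of 79 negative, against 0.02 over all genes, and for 27 members the groups did not overlap (14.3% of all genes). Rps24 led, at 311, 285, 226 and 246 CPM in aged ST-HSC against the aged MPP values above (log2 -0.51, SE 0.0903, adjusted p = 0.000114). Rps12 (-0.49), Rps3 (-0.33), Rpl4 (-0.39) and Rpl12 (-0.35) followed, with adjusted p from 0.000136 to 0.000663, and the calls of Rps24 and these genes were kept in all 18 alternatives. The count fell to 20 without aged MPP library 4 to 21 without aged ST-HSC library 3 and to 11 without the 3 libraries together, and was 49 without aged ST-HSC library 1.

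Aged LT-HSC against aged ST-HSC gave 4 higher and 2 lower members, where 16.2% of all genes were higher and 16.1% lower, and the median was -0.02. Rpl12 (log2 0.23, adjusted p = 0.0165), Rpl21 (0.57, 0.0201), Rpl5 (0.32, 0.0205) and Rpl23 (0.25, 0.0435) were higher in LT-HSC. Rps26, a protein at the mRNA exit, was lower (-0.62, adjusted p = 0.029), at 24.1, 36.3, 26.5 and 26.1 CPM in aged LT-HSC and 43.7, 64.4, 28.7 and 37.0 CPM in aged ST-HSC, which overlapped. Rpl3l, the paralog of Rpl3 known from muscle, was called lower with 3 counts in all aged LT-HSC libraries together and 44 in aged ST-HSC (adjusted p = 0.0213). No member was called when these 2 groups were fitted alone, and the count was 2 without aged LT-HSC library 1 or 3, and 3 without aged LT-HSC library 2 or 4 or aged ST-HSC library 2.

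**Figure D4:**
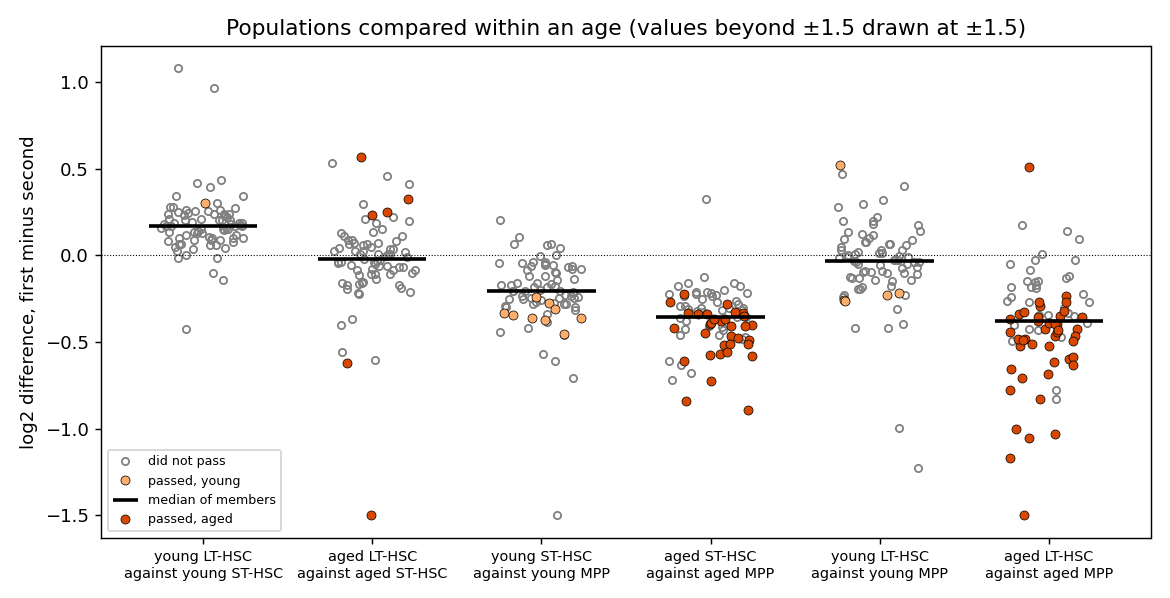
Log2 differences between populations for the 79 tested ribosomal protein genes, by age, with the members past an adjusted p of 0.05 marked. In aged mice most genes lie below 0 in ST-HSC against MPP (33 called lower) and in LT-HSC against MPP (43 called lower).

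The genes linked to Diamond-Blackfan anemia in people (19 listed, 18 tested) were read as a group. With age, 2 rose in MPP (Rps24 and Rps28) and 1 rose in LT-HSC (Rpl5), and their median change was 0.33 in MPP, 0.21 in ST-HSC and -0.03 in LT-HSC. Over all genes 5.53% rose in MPP and 9.98% in LT-HSC, so the single LT-HSC call is no more than the background. In aged LT-HSC against aged MPP, 12 of the 18 were lower, where 28.5% of all genes were. Of the rows with a ribosomal function that the symbol rule does not take, Fau, the small-subunit protein made as a ubiquitin-like fusion, rose in MPP from 224 ± 32.03 to 295 ± 36.8 CPM (log2 0.40, adjusted p = 0.0363), and Gnb2l1 (Rack1), a scaffold on the small subunit, from 1314 ± 92.7 to 1573 ± 88.9 CPM (log2 0.26, adjusted p = 0.0272). Rpl22l1 and Rpl7l1 had values of -0.01 and -0.17 in MPP and did not pass. None of these rows passed in LT-HSC or ST-HSC.

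The rest of the translation machinery was read from lists, beside the shares of all genes that rose and fell with age: 5.53% and 4.27% in MPP, 3.58% and 2.21% in ST-HSC, and 9.98% and 8.87% in LT-HSC. Of 68 factors of rRNA processing and ribosome assembly, 1 rose with age in MPP, the nucleolar chaperone Npm1 (107 ± 5.63 to 133 ± 10.5 CPM, log2 0.32, adjusted p = 0.0416), none fell, and the median was 0.09. In LT-HSC 4 of these 68 rose and 7 fell, counts near those shares of all genes, with a median of -0.12. They include Nol10, which rose (0.73, adjusted p = 0.000883), and Rrp9 (-0.69, adjusted p = 0.00216) and Rrp12 (-0.69, adjusted p = 0.008), which fell. In ST-HSC Riok1 rose (0.48, adjusted p = 0.0306) and Utp20 fell (-0.33, adjusted p = 0.0315). Of 15 genes of the RNA polymerase I machinery, none passed in MPP, 2 rose and 2 fell in LT-HSC (Polr1a, its largest subunit, by -0.31, adjusted p = 0.019), and Taf1d rose in ST-HSC (0.60, adjusted p = 0.00419).

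Of 34 tested initiation factors, 4 rose in MPP (Eif3f, Eif4a1, Eif2s1 and Pabpc1, log2 0.21 to 0.41) and 8 rose and 2 fell in LT-HSC, where Eif3e (0.38, adjusted p = 0.00149) and Eif1 (0.34, adjusted p = 0.00238) led. The helicase Eif4a1 rose in all 3 populations, from 346 ± 5.98 to 422 ± 13.7 CPM in MPP, 264 ± 9.50 to 346 ± 36.3 in ST-HSC and 255 ± 35.9 to 324 ± 27.7 in LT-HSC. Of 14 genes listed under elongation and release, 3 rose in MPP. Among them were Tpt1 (0.38, adjusted p = 0.000852), which is not itself an elongation or release factor, and the ribosome translocase Eef2 (0.20, adjusted p = 0.0351). In LT-HSC 3 of the 14 rose and 1 fell. There Eef2 went from 3858 ± 127 to 4755 ± 158 CPM (0.30, adjusted p = 0.000807) and Eef1a1 from 3361 ± 329 to 4310 ± 570 CPM (0.36, adjusted p = 0.0333). In aged LT-HSC against aged MPP, 45 of the 68 assembly factors were lower and 1 was higher (median -0.40), and of the 34 initiation factors 24 were lower and 2 higher (median -0.37), where 28.5% of all genes were lower and 28.3% higher.

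A further list held 20 genes of mTOR signaling or named as S6 kinases, not all of which act under mTOR. Of these, Deptor, an inhibitor of mTOR, rose in ST-HSC (57.4 ± 7.81 to 99.6 ± 10.3 CPM, adjusted p = 0.00162) and in MPP (57.1 ± 5.69 to 83.5 ± 22.9 CPM, adjusted p = 0.0172). Sesn3, which restrains mTOR, fell in MPP (-0.64, adjusted p = 0.007). In LT-HSC Rps6ka3 (0.65, adjusted p = 0.000918) and Sesn1 (0.43, adjusted p = 0.00148) rose and Mlst8 fell (-0.57, adjusted p = 0.00761). Of 10 genes of the Myc family and its partners, Mycn fell with age in MPP (52.6 ± 4.98 to 20.6 ± 5.95 CPM, adjusted p = 3.76e-06) and in ST-HSC (97.5 ± 10.6 to 51.2 ± 7.83 CPM, adjusted p = 0.000371). Mycl rose in MPP, from 0.408 ± 0.544 to 9.45 ± 5.98 CPM (adjusted p = 0.0135), and Mxd1, which opposes Myc, fell in LT-HSC (-0.73, adjusted p = 0.000848) and in ST-HSC (-0.53, adjusted p = 0.0295). Of 13 genes of ribosome stress and quality control, Cdkn1a, the p53 target p21, rose in LT-HSC from 6.26 ± 2.48 to 42.4 ± 11.3 CPM (adjusted p = 7.75e-08), in ST-HSC from 6.28 ± 1.96 to 28.6 ± 3.72 CPM (adjusted p = 1.97e-05) and in MPP from 14.9 ± 5.17 to 53.5 ± 6.25 CPM (adjusted p = 3.5e-05). The other calls in that list were Trp53, which encodes p53 (-0.40, adjusted p = 0.00147), and Gcn1l1 (-0.22, adjusted p = 0.0384), both lower in aged LT-HSC, and the stress response factor Atf4, higher in aged ST-HSC (0.64, adjusted p = 0.0424). Rps27l, itself a known p53 target, had age changes of -0.45, 0.15 and 0.32 in the same populations, none past the test (adjusted p = 0.222, 0.794 and 0.456).

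Ribosomal protein genes have many processed pseudogenes, so the share of each mRNA that is unique was taken from the GENCODE M21 annotation of mm10, as 50-base windows found in no other annotated gene, for 81 members. The members differed widely in level per kilobase of mRNA. Rps12 reached 1485 CPM per kb with 9.89% unique. Rps27 stood at 3.68 CPM per kb with 1.35% unique. Rpl26, a core protein of the large subunit, was listed at 0 in all 24 libraries, with 28.7% unique. A listed 0 leaves room for an expected count of up to 3 in a library. Rpl30 and Rpl34 held 186 and 216 counts over all libraries, with 52.2% and 49.4% unique. Of the members restricted to certain tissues, Rpl10l, known from testis, was also at 0 in every library, and Rpl39l had at most 12 counts in a group. Spearman's rho between uniqueness and level over the 81 members was 0.03, a description across genes. Uniqueness and level per kilobase rest on a single annotated transcript per gene. That transcript was 5130 bases long for Rps15a (93.9% unique, 52.6 CPM per kb) and 3706 bases for Rps20 (92.4%, 54.9 CPM per kb). The effect of this choice of transcript was not tested. The median age change in MPP was 0.33 for the 20 members under 25% unique, 0.34 for those between and 0.33 for those over 75%, and in aged LT-HSC against aged MPP the medians were -0.33, -0.41 and -0.43. How reads with several matches were counted is not given in the sources used here, and its part in the low rows was not tested.

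**Figure D5:**
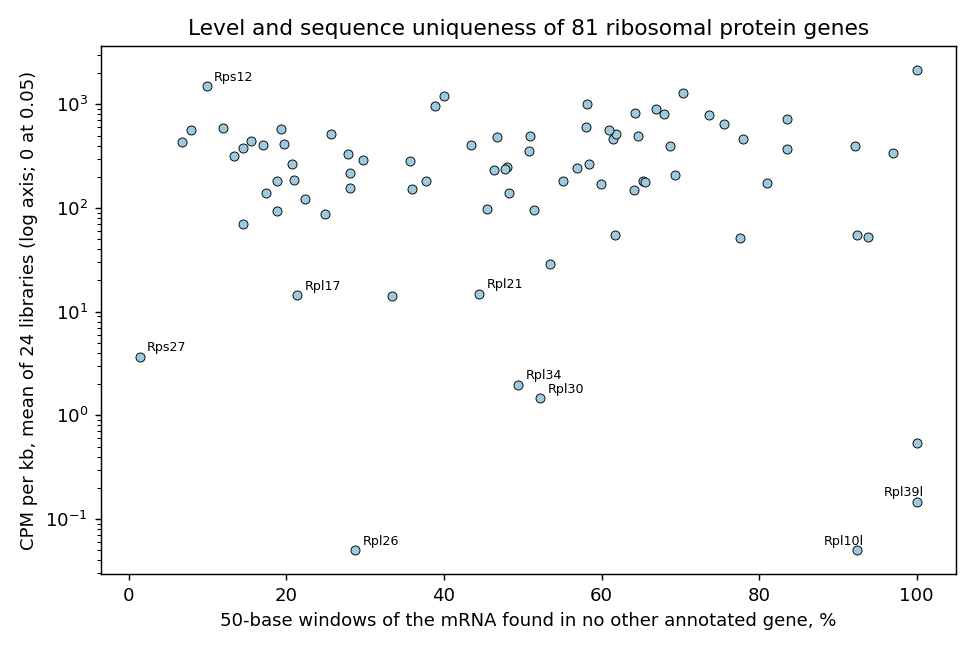
Level of 81 ribosomal protein genes (CPM per kb of mRNA, mean of 24 libraries, log axis with 0 drawn at 0.05) against the percentage of 50-base windows of the mRNA found in no other annotated gene. Rps27 (1.35% unique), Rpl26 (28.7%), Rpl10l (92.4%) and Rpl39l (100%) all lie low, while Rps12 is among the highest with 9.89% unique.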

How the data were processed

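Bulk RNA-seq was read from a table of raw counts per gene symbol that the authors deposited. The tools named per the submitters' processing notes are featureCounts, HISAT2 and Trim Galore, and the genome build is mm10. Their versions, the gene annotation and the use of strand: not given in the sources used here. Per the labels' protocols, libraries were made from not-so-random primed cDNA with Nextera XT, as described without strand marking or molecular identifiers, so antisense or overlapping genes and near-identical copies may share counts.

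In R 4.3.3, edgeR 4.0.16 kept genes by filterByExpr (14205), computed TMM factors and fitted a robust quasi-likelihood model to all 24 libraries with a mean per group (18 residual degrees of freedom, common dispersion 0.0454). There were 12 contrasts, two-sided, with Benjamini-Hochberg adjustment over all tested genes and a threshold of 0.05. The script was tested on simulated data. Alternatives used DESeq2 1.42.0, limma-voom (limma 3.58.1), other scalings and filters, fewer groups, a replicate block and libraries left out. Totals of about 7307150 to 12946600 counts a library limit the precision of low rows.

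The members and lists were chosen with earlier results of these data known. Named members are up to 6 called in each direction of smallest p per contrast (4 for differences of age changes), the stalk and paralog lists, the extremes of level and up to 4 called genes per pathway list. Rows added beyond that were chosen after their values were seen. A few items that the rule names are not reported here.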

Additional observations from a re-analysis of the deposited data

Results flagged for a closer look

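The levels of 20 named members and the summed share were looked at in each of the 6 groups, as 126 sets of 4 libraries. In 9 sets, all of named members, a library lay far from the other 3. Chance alone picks about 1 in 20 independent sets, but these sets share libraries and the members move together, so that rate is only a rough guide. In aged MPP, library 4 stood high for Rpl12 (820.6 CPM, the others 721.3 to 731.2) and Rpl23 (255 CPM, the others 204.3 to 212.3), and library 2 stood low for Rpsa (457.4 CPM, the others 640 to 666.7). In young ST-HSC, library 4 was low for Rpl23 (143.8 CPM, the others 182 to 189.8) and high for Rpsa (471.6 CPM, the others 255 to 269.2), and library 2 was low for Rps27l (18.24 CPM, the others 23.52 to 23.78). Young MPP library 2 was low for Rps25 (470.2 CPM, the others 553 to 558.1). In aged LT-HSC, library 2 was high for Rpl8 (327.4 CPM, the others 273.8 to 282), and library 3 was the only one with Rpl3l counts (0.3826 CPM).

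The age change differed between LT-HSC and MPP, by the test of the difference itself, for Rpl19 (-0.395), Rpl8 (-0.5212), Rpl9 (-0.4325), Rps25 (-0.4844) and Rpl10 (-0.4444), as log2 change in LT-HSC minus that in MPP. These are 6.33% of the 79 tested members, near the 4.89% of all genes called lower. None was called without aged LT-HSC library 4, aged MPP library 4, young MPP library 2 or young LT-HSC library 3.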

How the results depend on the processing

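No named call changed direction. Of 45 named calls, 21 held in every alternative and 24 were lost in at least one. The median change of the members moved by less than the spread in all 240 comparisons with an alternative. That spread combines the SDs, between libraries of each group compared, of the median member level. It can exceed the median change itself, so staying within it is a weak criterion. In aged ST-HSC alone this SD was 0.167 log2 CPM, while the median age change in ST-HSC was 0.155. With a library left out, the number of called members ran from 1 to 3 for age in LT-HSC, 0 to 3 in ST-HSC and 5 to 18 in MPP. It ran from 0 to 1 for the difference of LT-HSC and ST-HSC, 0 to 11 for LT-HSC and MPP, and stayed 0 for ST-HSC and MPP. Between populations it ran from 0 to 2 (young LT-HSC, ST-HSC), 4 to 12 (young ST-HSC, MPP), 0 to 7 (young LT-HSC, MPP), 2 to 6 (aged LT-HSC, ST-HSC), 20 to 49 (aged ST-HSC, MPP) and 27 to 54 (aged LT-HSC, MPP). DESeq2 called 3 members for age in ST-HSC, 21 in MPP and 9 for LT-HSC minus MPP. Fitting only the groups compared gave 8 for LT-HSC minus MPP, 19 for young ST-HSC against MPP and 0 for aged LT-HSC against ST-HSC. With 3 libraries left out together (the first of young LT-HSC, the second and the third of aged ST-HSC), a choice made after seeing the marker levels, the counts were 5, 3 and 21 for age in LT-HSC, ST-HSC and MPP, 1 for LT-HSC minus ST-HSC, 14 for LT-HSC minus MPP, 16 for young and 11 for aged ST-HSC against MPP. With Rn45s out of the total, the summed share came to 3.043% for aged MPP, 2.527% for young MPP and 2.269% for young ST-HSC. The cause of these changes was not tested.

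Replicate numbers did not clearly pair the libraries. Same-numbered libraries of an age correlated over 0.1 in 7 of 24 pairs (-0.10 to 0.20), and 9 of 24 correlated best with their own number among 4. Between ages, 2 of 12 same-numbered pairs correlated over 0.1. A pairing of libraries by mouse is not excluded by these values, and the main fit treats the libraries as unpaired. For the age comparisons, a fit with the replicate number as a block called 3, 1 and 13 members in LT-HSC, ST-HSC and MPP. That block joins young and aged libraries of the same number, which come from different animals, so it cannot stand for a mouse. The other comparisons used age and replicate number together as the block. That fit called 4 members for LT-HSC minus MPP, 35 for aged ST-HSC and 44 for aged LT-HSC against MPP.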

Other observations

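Within groups the members moved together. After the group means were taken away, 1 principal component took up 58.6% of the variance of the 74 members of at least 10 CPM over the 24 libraries. The median correlation between 2 members was 0.63. For the 9784 genes past the same floor the component took up 15.3%, but these genes were not matched to the members in level. This is a description, since all points share libraries. Rpl37a, a zinc-binding protein of the large subunit, stood apart: its correlation with the median of the others was -0.71, and the next lowest was Rpl5 (-0.27). These were picked after their values were seen.

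The summed share, Rpl37a and Rn45s can be read off the same libraries. In 5 of the 6 groups the library with the lowest member share was also the lowest in Rn45s, and in 5 of the 6 it was the highest in Rpl37a. In young LT-HSC library 1 the member share was 2.00%, Rn45s 6.85% and Rpl37a 428 CPM, while the other young LT-HSC libraries had Rpl37a at 228, 252 and 217 CPM. In young MPP library 2 the values were 2.05%, 6.96% and 396 CPM, with 213, 200 and 223 CPM in the others. What these libraries share beyond this was not tested.

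Rps3a1, a small-subunit protein outside the symbol rule, had group means from 287 ± 32.6 CPM in young ST-HSC to 408 ± 37.6 CPM in aged MPP, the same lowest and highest groups as most members. Rows marked as ribosomal protein pseudogenes held 0.00954 to 0.0159% of the counts of a library. Most of this lay in Rpl14-ps1, at 87.0 to 162 CPM. Few pseudogene rows were counted, while 120 annotated pseudogenes share a 50-base stretch with the Rpl7a mRNA alone. The share thus does not measure the reads of all such pseudogenes.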
